A study of Mus musculus with 6 samples.

Results

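Cathepsins are the proteases of the lysosome, and 10 genes of this system are described here among the 31265 genes measured: the cysteine cathepsins Ctsb, Ctsc, Ctsh, Ctsl and Ctsz, the aspartic protease Ctsd, the serine carboxypeptidase Ctsa, legumain (Lgmn), tripeptidyl peptidase 1 (Tpp1) and the inhibitor cystatin C (Cst3). They were taken by gene symbol, each symbol gave 1 row, and the set was chosen by its FPKM values in these same oxidized and reduced libraries, so their difference is given for the 10 genes as a description. FPKM is a fragment count scaled to transcript length and library size. All 10 averaged at least 1 FPKM over the 6 libraries, the level required for testing, and 12191 genes in all did.

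The libraries came from E14Tg2a cells, a mouse embryonic stem cell line labelled WT, described as clonal and expressing nuclear Grx1-roGFP2, a fluorescent sensor of the glutathione redox state. They were kept in serum with LIF and 2i, turned into embryoid bodies in hanging drops without LIF and 2i, and dissociated at day 5, when cells negative for propidium iodide were sorted by nuclear redox state. From each of 3 populations (A, B, C) the most oxidized 10% and the most reduced 10% were taken, which gave 3 oxidized and 3 reduced libraries. All come from 1 cell line, and as the labels do not say how the populations differ, the spread between libraries may be technical. The question of the study was whether nuclear redox state goes with a choice of distinct fates on differentiation.

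Cathepsins are made as inactive precursors, most of them are tagged with mannose 6-phosphate in the Golgi, and they mature in the acidic lysosome, where they break down proteins delivered by endocytosis and autophagy. Cystatins block the cysteine cathepsins that leak or are secreted. Many lysosomal genes carry the sequence TCACGTG near their start, the core of an element bound by the transcription factor TFEB and its relatives. In the early mouse embryo the visceral endoderm, an extraembryonic epithelium with a large lysosomal system, degrades maternal protein for the embryo.

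Oxidized A and B stood apart from the other 4 libraries. The ribosomal RNA locus CT010467 was listed there at 1410 and 1736 FPKM, whereas oxidized C and the reduced libraries had 34116 to 43825 FPKM. The mitochondrial transcript mt-Co3 ran the other way, with 2710 and 1525 FPKM in that pair and 112 to 199 FPKM in the other 4. The estimated depth was 1.18e+07 to 1.58e+07 fragments in oxidized and 1.25e+07 to 1.79e+07 in reduced libraries, lowest in population C. Pluripotent cell markers were present in both groups, with summed levels of 755 to 1882 FPKM over 8 genes in oxidized and 2138 to 2390 FPKM in reduced cells, of which Esrrb was lowest, under 1.1 FPKM in every library. Most of that sum is Dppa5a; without it, a choice made after its values were seen, the groups overlapped, at 277 to 607 FPKM in oxidized and 555.5 to 768 FPKM in reduced libraries. In bulk libraries fewer cells of a type and less RNA per cell cannot be told apart, which holds for every difference below.

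**Figure D1:**
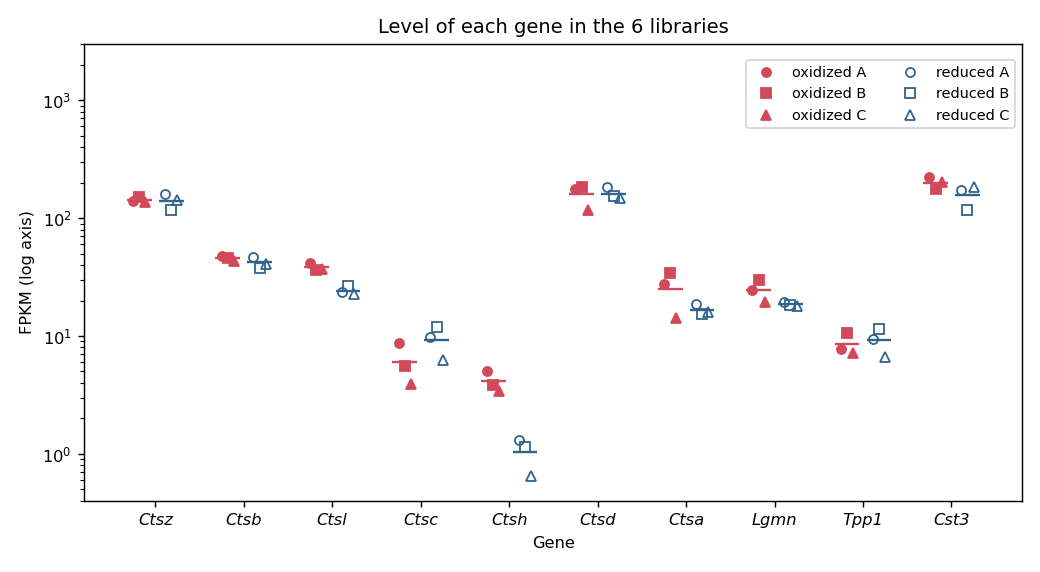
FPKM of the 10 genes on a log axis, with 1 symbol per library (filled for oxidized, open for reduced, shape for population) and a bar at the mean of 3 libraries. The groups separate completely for Ctsh and Ctsl, and overlap for the other 8 genes.

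Cathepsin H (Ctsh, chr9:90054152-90076089 in GRCm38, as for all positions), a lysosomal aminopeptidase, had the largest difference of the 10 and the lowest level. Oxidized A, B and C had 5.10, 3.87 and 3.41 FPKM of Ctsh, and reduced A, B and C had 1.301, 1.149 and 0.648 FPKM. Every oxidized library lay above every reduced one, and population C was lowest in both groups. The means were 4.13 ± 0.872 FPKM in oxidized cells, against 1.03 ± 0.341 FPKM in reduced cells (SD, n = 3 each), a ratio of 3.995. The oxidized minus reduced difference in log2(FPKM + 1), a scale that compresses the change of low genes, was 1.34 (SE 0.20), and it was 1.93 with a pseudocount of 0.1. At the estimated depth and the length of its longest listed transcript, 2743 bases, the Ctsh values correspond to about 221, 161 and 110 fragments in oxidized and 64, 54 and 22 in reduced A, B and C. None of its 50-base stretches occurs in transcripts of other genes.

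Cathepsin L (Ctsl, chr13:64359337-64370890), a potent lysosomal endopeptidase, was the other gene whose groups did not overlap. Oxidized A, B and C had 41.6, 36.3 and 37.1 FPKM, and reduced A, B and C had 23.6, 26.4 and 22.8 FPKM. All 3 oxidized libraries were above 36 FPKM and all 3 reduced ones below 27. The means were 38.3 ± 2.86 FPKM in oxidized cells, against 24.3 ± 1.89 FPKM in reduced cells (SD, n = 3 each), a ratio of 1.58 and a log2 difference of 0.64 (SE 0.15), or 0.59 without oxidized A and B. Of the stretches of Ctsl 6.46% also occur in transcripts of other genes, mainly Gm49230, which was listed at 0 in both groups.

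Cathepsins B and Z, the most abundant cysteine cathepsins, differed by less than the spread between libraries. Ctsb (chr14:63122462-63145923), an endopeptidase that also removes dipeptides from the C-terminus, had 47.7, 45.8 and 43.0 FPKM in oxidized cells of A, B and C, against 47.1, 38.1 and 41.2 FPKM in reduced ones. The groups overlapped, with a log2 difference of 0.11 (SE 0.15), or 0.035 without oxidized A and B, 0.045 without reduced B, 0.20 without reduced A and 0.011 with median-ratio scaling. Fdft1, on the opposite strand, covers 12.8% of the exon bases of Ctsb and averaged 45.99 FPKM in oxidized libraries and 45.44 FPKM in reduced ones. Ctsz (chr2:174427493-174439039), a carboxypeptidase also called cathepsin X, was at 139, 150 and 136 FPKM in oxidized and at 160, 118 and 142 FPKM in reduced A, B and C. Its oxidized libraries lay inside the reduced range, and its log2 difference of 0.027 (SE 0.17) became -0.078 with median-ratio scaling, -0.027 without oxidized A and B, -0.091 without reduced B and -0.013 without oxidized B.

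Cathepsin C (Ctsc, chr7:88278085-88310888), a dipeptidyl peptidase known for activating serine proteases of immune cells, ran the other way. Oxidized A, B and C had 8.66, 5.58 and 3.93 FPKM, and reduced A, B and C had 9.80, 11.9 and 6.28 FPKM. In each population the oxidized library was the lower of the pair, while the groups overlapped because reduced C lay below oxidized A. The means were 6.06 ± 2.40 FPKM in oxidized cells, against 9.33 ± 2.84 FPKM in reduced cells (SD, n = 3 each), with a log2 difference of -0.56 (SE 0.29), of -0.33 without oxidized C and of -1.03 without oxidized A and B.

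Among the proteases of other classes, cathepsin D (Ctsd, chr7:142375911-142388038), the main aspartic protease of the lysosome, was at 175, 183 and 117 FPKM in oxidized libraries and 183, 153 and 148 FPKM in reduced A, B and C. Oxidized C was the lowest of the 6 libraries and oxidized B the highest, with a log2 difference of -0.047 (SE 0.21), of -0.45 without oxidized A and B, of 0.16 without oxidized C and of 0.045 without reduced A. As 32.4% of its stretches also occur in transcripts of other genes, mainly Gm49369, the level of Ctsd is uncertain. Tpp1 (chr7:105744811-105752235), a serine protease that removes tripeptides from the N-terminus and is lost in a form of neuronal ceroid lipofuscinosis, was at 7.74, 10.6 and 7.24 FPKM in oxidized libraries and 9.37, 11.5 and 6.67 FPKM in reduced A, B and C. Its groups overlapped, with population B highest in both and a log2 difference of -0.083 (SE 0.22). Its sign depended on the libraries, with 0.080 without reduced B, 0.014 without oxidized C and -0.28 without oxidized A and B.

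Cathepsin A and legumain were highest in oxidized A and B. Ctsa (chr2:164832873-164841032), a serine carboxypeptidase that also protects neuraminidase and beta-galactosidase in the lysosome, was at 27.7, 33.9 and 14.1 FPKM in oxidized libraries and 18.6, 15.3 and 15.97 FPKM in reduced A, B and C. Oxidized A and B were the 2 highest libraries and oxidized C the lowest of all, so the log2 difference of 0.49 (SE 0.29) was -0.22 without oxidized A and B, 0.25 without oxidized B and 0.85 without oxidized C. Pltp, on the opposite strand, covers 10.5% of the exon bases of Ctsa and averaged 29.3 FPKM in oxidized cells, against 20.8 FPKM in reduced cells. Lgmn (chr12:102394084-102439813), an endopeptidase that cuts after asparagine and processes cathepsin precursors, was at 24.8, 29.7 and 19.3 FPKM in oxidized libraries and 19.5, 18.3 and 18.1 FPKM in reduced A, B and C. Its order over the oxidized libraries was that of Ctsa, and oxidized C lay within the reduced range. The log2 difference of Lgmn was 0.36 (SE 0.18), with 0.22 without oxidized B and 0.052 without oxidized A and B.

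Cystatin C (Cst3, chr2:148871722-148875692), the secreted inhibitor of cysteine cathepsins, was the most abundant of the 10. Oxidized A, B and C had 223, 175 and 202 FPKM, and reduced A, B and C had 173, 118 and 183 FPKM. Population B was lowest in both groups, each oxidized library was above its reduced partner, and the groups overlapped. The means were 200 ± 24.1 FPKM in oxidized cells, against 158 ± 35.2 FPKM in reduced cells (SD, n = 3 each), with a log2 difference of 0.36 (SE 0.21), or 0.38 without oxidized A and B and 0.16 without reduced B. Set against the summed level of the 5 cysteine cathepsins, Cst3 stood at a ratio of 0.851 ± 0.109 in oxidized and 0.726 ± 0.129 in reduced cells (SD, n = 3 each), ranges that overlapped.

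Over all 6 libraries the genes ordered by mean FPKM as Cst3, Ctsd, Ctsz, Ctsb, Ctsl, Lgmn, Ctsa, Tpp1, Ctsc and Ctsh. Cst3 at 179, Ctsd at 160 and Ctsz at 141 FPKM overlapped in range, and Cst3 was above Ctsd in 3 of 6 libraries. The range of Ctsz, from 118 to 160 FPKM, did not overlap that of Ctsb, from 38.1 to 47.7 FPKM. Lgmn at 21.6 and Ctsa at 20.9 FPKM did not differ beyond their spread, nor did Tpp1 at 8.86 and Ctsc at 7.69 FPKM, with Tpp1 above Ctsc in 3 of 6 libraries. Ctsh came last in every library. The coefficient of variation over the 6 libraries was highest for Ctsh, at 69.6%, and lowest for Ctsb, at 8.56%.

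**Figure D2:**
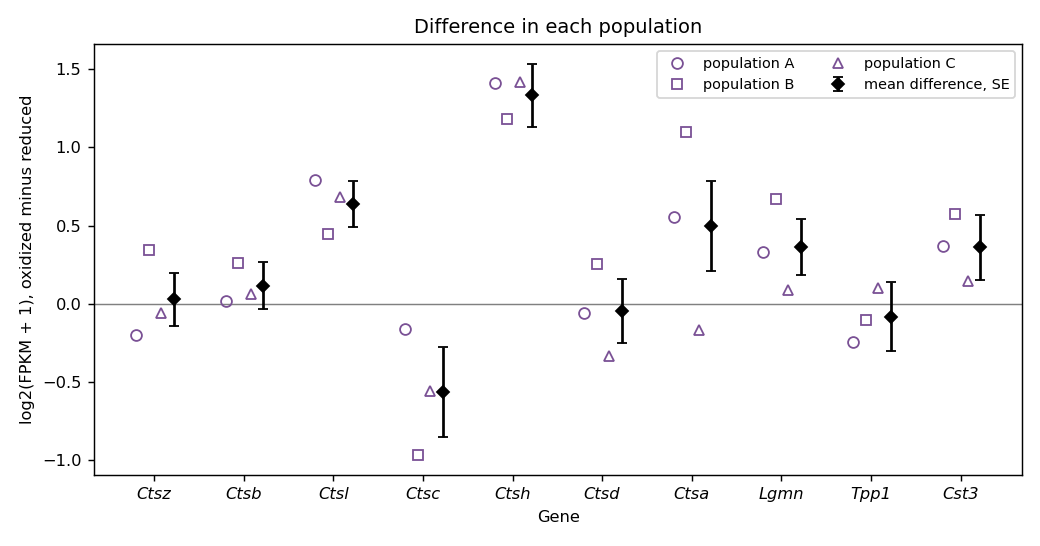
Oxidized minus reduced difference in log2(FPKM + 1) for each gene, in populations A, B and C (open symbols) and as the mean with its SE (filled diamonds). Ctsh lies between 1.18 and 1.42 in all 3 populations, whereas Ctsa runs from -0.17 in C to 1.10 in B.

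As each population gave an oxidized and a reduced library, the difference can also be read within each population. For Ctsh it was 1.41 in A, 1.18 in B and 1.42 in C on the log2 scale, and for Ctsl 0.79, 0.45 and 0.68. Lgmn, Cst3 and Ctsb were also higher in the oxidized library of all 3 populations, Ctsc was lower in all 3, and the directions were mixed for Ctsd, Ctsz, Ctsa and Tpp1. Population B had the largest positive difference for Ctsa (1.10), Lgmn (0.67), Cst3 (0.57), Ctsz (0.34), Ctsb (0.26) and Ctsd (0.26), and the largest negative one for Ctsc (-0.97).

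Across the table limma called 0.796% of the 12191 genes tested at an adjusted p under 0.05, and 1 of the 10 genes, Ctsh, was among them (adjusted p = 0.0347, and 0.0613 with the population as a block). Without 1 library its adjusted p from limma ran from 0.0052 (without oxidized C) to 0.168 (without reduced B) and was above 0.05 in 5 of 6 such fits. It was 0.193 with no filter on low genes and, at a log2 difference of 1.13, 0.152 without oxidized A and B. The groups did not overlap, oxidized being higher, for 2 of the 10 genes, against 16.2% of all genes tested, and oxidized was wholly below reduced for 0 of the 10, against 8.81%. As the set was chosen with this contrast known, nothing is read from these counts. The median log2 difference of the 10 was 0.24, where that of all genes tested was 0.077. It was 0.13 with median-ratio scaling, 0.12 without reduced B, 0.11 over the 9 genes of at least 5 FPKM and 0.0040 without oxidized A and B.

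Among the cysteine cathepsins the proportions of Ctsl and Ctsh separated the groups, while the summed level did not. Together the 5 genes held 242, 241 and 224 FPKM in oxidized cells of A, B and C and 242, 195 and 213 FPKM in reduced A, B and C, ranges that overlapped. Ctsl made up 17.2%, 15.1% and 16.6% of that sum in oxidized libraries and 9.78%, 13.5% and 10.7% in reduced ones. Ctsh made up 2.11%, 1.61% and 1.52% in oxidized A, B and C, against 0.538%, 0.589% and 0.305% in reduced A, B and C. For both genes every oxidized share was above every reduced share, which restates the separation already seen in their FPKM. Ctsb stayed at 19.0% to 19.7% in oxidized and 19.3% to 19.5% in reduced libraries, Ctsz held 57.4% to 62.0% in oxidized against 60.3% to 66.7% in reduced ones, and Ctsc 1.76% to 3.58% in oxidized against 2.95% to 6.10% in reduced ones. The ratio of Ctsl to Ctsb, which needs no scaling between libraries, was 0.872, 0.792 and 0.862 in oxidized A, B and C and 0.502, 0.693 and 0.553 in reduced A, B and C.

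**Figure D3:**
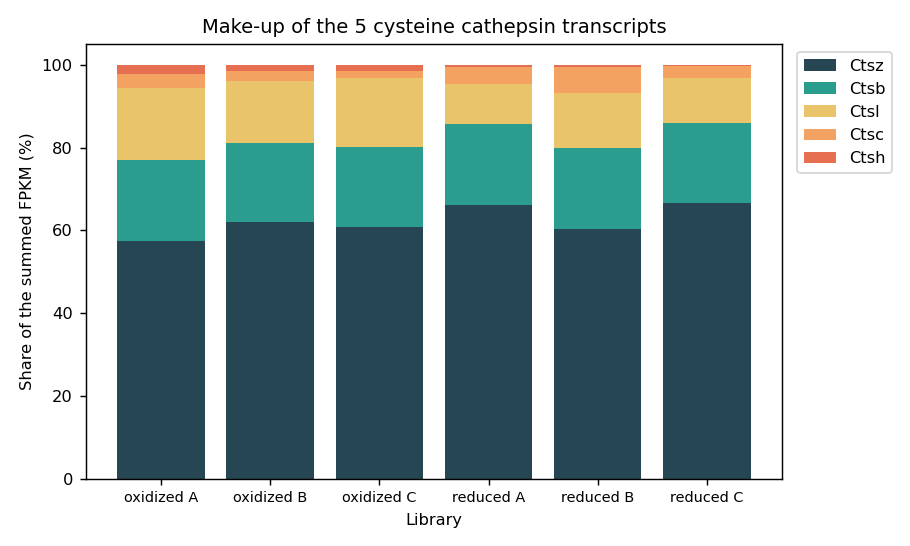
Share of each cysteine cathepsin in the summed FPKM of the 5, in percent, with 1 bar per library and the oxidized libraries on the left. The Ctsl segment spans 15.1% to 17.2% in oxidized and 9.78% to 13.5% in reduced libraries, while the Ctsb segment stays near 19% in all 6.

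Summed markers of visceral endoderm and of mesenchyme were higher in oxidized libraries, as Ctsh and Ctsl were. Within each group their order over A, B and C was not that of Ctsh or Ctsl. Of 14 visceral endoderm markers 10 passed the filter, 9 of these had positive differences, and limma called 0 of 10 at an adjusted p under 0.05, with 8 at an unadjusted p under 0.05, all higher in oxidized cells, against 19.4% of all genes tested in either direction. Their summed level was 40.3, 49.96 and 42.6 FPKM in oxidized cells of A, B and C, against 21.2, 19.98 and 21.5 FPKM in reduced ones. Among them Ttr, which encodes the thyroid hormone carrier transthyretin, averaged 2.22 ± 0.907 FPKM in oxidized cells, against 0.351 ± 0.107 FPKM in reduced cells (SD, n = 3 each). The endoderm regulator Hnf4a was listed at 0 in 2 reduced libraries and stayed under 0.29 FPKM in all 6. Gata4, Gata6 and Rbp4 had the highest means of the 14, at 9.66, 7.44 and 6.23 FPKM in oxidized and 5.27, 3.11 and 3.01 FPKM in reduced cells. Lrp2 had the negative difference, -0.14, and Afp and Apob were at most 0.698 and 0.260 FPKM in any library. The 10 fibroblast and mesenchyme markers summed to 121, 147 and 164 FPKM in oxidized libraries and 68.1, 57.4 and 81.4 FPKM in reduced A, B and C. The largest part was Mmp2, at 59.0, 70.7 and 84.2 FPKM in oxidized and 39.0, 34.8 and 44.5 FPKM in reduced A, B and C. Dcn, Lum and Thy1 averaged under 1 FPKM in both groups. All 7 markers tested had positive differences, and limma called 2 of them, both higher, against 0.796% of all genes tested. Of 7 pluripotent cell markers tested 1 was called, Tdgf1, at 41.8 ± 7.63 FPKM in oxidized cells, against 129 ± 32.7 FPKM in reduced cells (SD, n = 3 each, log2 difference -1.58, limma adjusted p = 0.0323), while Nanog had a positive difference of 0.35 (limma adjusted p = 0.707). Ttr, Foxa2 and Col1a2, averaging 0.351, 0.619 and 0.551 FPKM in reduced cells, passed the filter of 1 FPKM only through their oxidized libraries. The counts of visceral endoderm and mesenchyme markers thus partly follow from the filter. The part of these marked cell types in the difference of Ctsh and Ctsl was not tested.

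Macrophages, which are rich in cathepsins, left little trace. Of 11 macrophage markers Ptprc, C1qa and C1qb were listed at 0 in all 6 libraries, and the 10 markers other than Cd68 summed to 0.347, 0.00599 and 0.139 FPKM in oxidized libraries and 0.865, 0.513 and 0.133 FPKM in reduced A, B and C. Cd68, a lysosomal membrane protein that other cells also make, averaged 8.30 ± 3.29 FPKM in oxidized cells, against 11.8 ± 3.50 FPKM in reduced cells (SD, n = 3 each). The cathepsins typical of other cells were low as well: of 12 further cathepsin genes only Ctso and Ctsf reached a mean of 1 FPKM, and the placental genes Ctsj, Ctsm, Ctsq, Cts3 and Cts7 were listed at 0 throughout. Ctsr, another of the 12, was listed at 0 in 5 libraries and at 0.226 FPKM in reduced C. The osteoclast gene Ctsk was listed at 0 in 5 libraries and at 0.222 FPKM in reduced A.

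**Figure D4:**
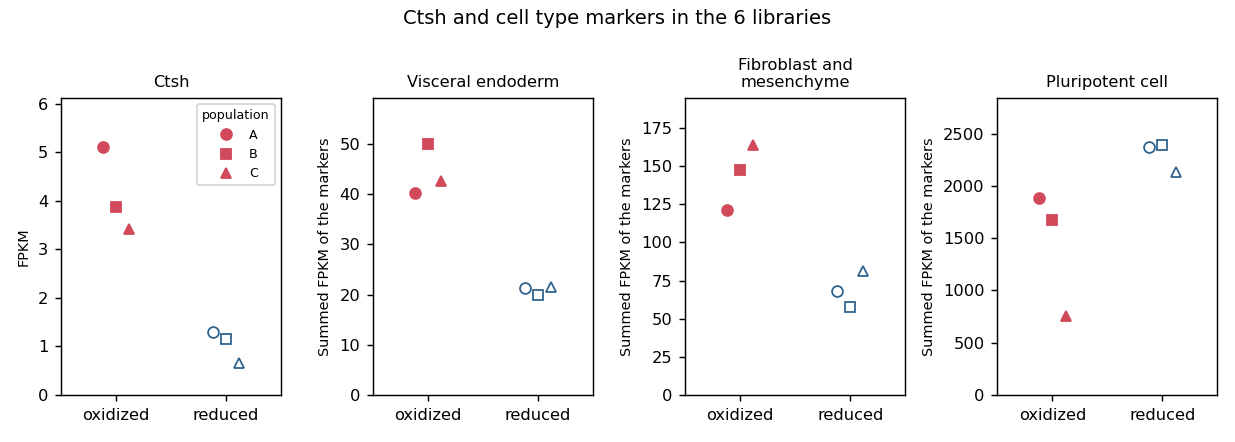
FPKM of Ctsh and summed FPKM of the markers of visceral endoderm, of fibroblasts and mesenchyme and of pluripotent cells, with 1 symbol per library. Ctsh and the first 2 marker sums are higher in all 3 oxidized libraries, and the pluripotent sum, most of it Dppa5a, is lower, most of all in oxidized C at 755 FPKM.

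Taken as a whole, the remaining lysosomal machinery was near the background of all genes. Of 119 further lysosomal genes in the table, listed by function, 98 were tested, and limma called 0 of them at an adjusted p under 0.05, where it called 0.796% of all genes tested, so a count of 0 among 98 is no result about these genes. At an unadjusted p under 0.05 there were 22 (15 higher and 7 lower in oxidized cells), or 22.4%, against 19.4% of all genes tested. Their median log2 difference was 0.076, next to 0.077 for all genes tested, and -0.0039 with median-ratio scaling, which moves the differences by a median of -0.091 over all genes. Without oxidized C 1180 of the 12191 genes tested were called, and 9 of the 98, a similar share, so this count is no result about them either. The 9 were Naglu, Smpd1, Lipa, Acp2, Pla2g15, Lamp2, Laptm4b, Atp6v0e2 and Atp6v1a, all with positive differences of 0.72 to 1.16.

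Lysosomal glycosidases, lipases and sulfatases had 20 of 30 differences positive (7232 of 12191 over all genes tested) and a median of 0.27 (0.18 with median-ratio scaling). At an unadjusted p under 0.05 from limma 8 were higher and 3 lower, or 36.7%. Over all genes tested it was 19.4%, with 1648 higher and 723 lower. Naglu, which degrades heparan sulfate, was at 10.7, 12.4 and 9.97 FPKM in oxidized libraries and 5.26, 5.51 and 6.57 FPKM in reduced A, B and C (log2 difference 0.83, limma adjusted p = 0.0613). Its groups did not overlap. The acid sphingomyelinase gene Smpd1 had a difference of 0.66 (adjusted p = 0.0979, limma).

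Subunits of the V-ATPase, the pump that acidifies the lysosome, had 6 of 17 differences positive and a median of -0.14 (4 of 17 and -0.24 with median-ratio scaling). Atp6v0b differed by -0.46 (limma adjusted p = 0.199), the accessory subunit Atp6ap2 by -0.57 (0.206) and Atp6v0e2 by 0.66 (0.202). Of the membrane and transport proteins 10 of 17 were positive, with a median of 0.098 (0.013 with median-ratio scaling). Lamp2, a receptor of chaperone-mediated autophagy, was at 11.2, 9.76 and 5.15 FPKM in oxidized libraries and 3.41, 4.54 and 4.54 FPKM in reduced A, B and C (log2 difference 0.86, limma adjusted p = 0.144). Its close relative Lamp1 was at 245, 247 and 248 FPKM in oxidized cells of A, B and C, against 348, 329 and 302 FPKM in reduced A, B and C (log2 difference -0.40, limma adjusted p = 0.204). The groups did not overlap for either gene, in opposite directions, and Laptm4b differed by 0.65 (0.276), or 0.32 without oxidized B and 0.97 without oxidized C.

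Sorting genes of the mannose 6-phosphate route had a median of 0.15 over 12 tested. Gnptg, a subunit of the enzyme that starts the tag, differed by 0.55 (limma adjusted p = 0.155), uncertain because Unkl on the opposite strand covers 49.5% of its exon bases, the adaptor gene Gga3 by 0.43 (0.259), or 0.27 without oxidized B, and the sorting receptor gene Sorl1 by -0.40 (0.396), or -0.19 without oxidized A and -0.61 without oxidized B. Regulators of lysosomal genes had a median of -0.059 over 15. Zkscan3, a zinc finger protein described in human cells as a repressor of autophagy genes, differed by 0.63 (limma adjusted p = 0.116), the growth kinase gene Mtor by -0.49 (0.202) and Fnip1 by -0.41 (0.299), or -0.23 without reduced B. Tfeb, named outside the rule for its link to TCACGTG, was at 1.57, 2.27 and 1.55 FPKM in oxidized libraries and 1.49, 1.68 and 1.75 FPKM in reduced A, B and C (limma adjusted p = 0.834).

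The nearest relatives of the 10 genes were few. Ctso differed by 0.51 (limma adjusted p = 0.173) and Ctsf by -0.0092 (0.984). Among other lysosomal peptidases Prcp differed by 0.49 (limma adjusted p = 0.187), Scpep1 by 0.18 (0.636) and Dpp7 by -0.15 (0.669). The intracellular inhibitor cystatin B (Cstb) was at 173, 111 and 91.5 FPKM in oxidized libraries and 93.4, 98.9 and 107 FPKM in reduced A, B and C. Only oxidized A stood out, and the log2 difference was 0.28 (limma adjusted p = 0.535). The protease inhibitor gene Serpinb6a differed by -0.27 (limma adjusted p = 0.358).

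The pathway annotation deposited with the table was also read, a list taken after values were seen that overlaps those above. It assigns 121 genes to the KEGG lysosome pathway, 9 of the 10 genes described here among them, Cst3 being the exception. Of the other 112, 95 were tested and limma called 1, lower in oxidized cells: Ap1m2, an adaptor subunit of epithelial cells, named here after its value was seen. That share lies near the 0.796% of all genes tested, and the median difference was 0.12.

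**Figure D5:**
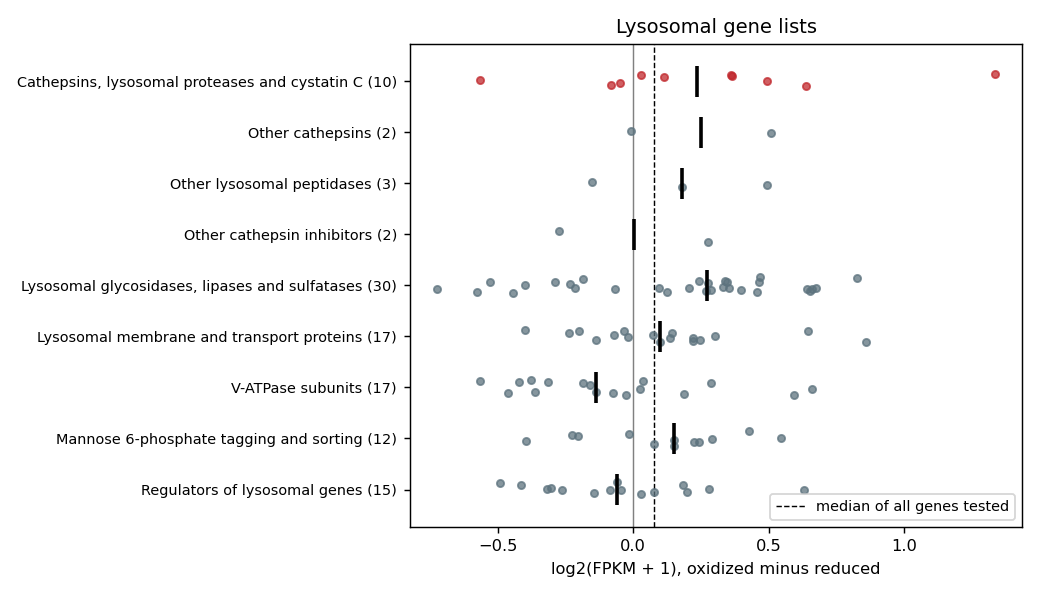
Oxidized minus reduced difference in log2(FPKM + 1) for each tested gene of the lysosomal lists, with the number of genes in brackets, a black bar at each list's median and a dashed line at the median of all genes tested, 0.077. The cathepsin set runs from -0.56 for Ctsc to 1.34 for Ctsh, and the V-ATPase median lies at -0.14.

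Sites matching TCACGTG or its core are shown because that element is the sequence known for lysosomal genes. RefSeq windows (GRCm38.p6) of 250 bases before to 50 after a gene's start were matched for 8 of the 10 genes. TCACGTG on either strand was in a window of 3 of the 8, Ctsa, Ctsd and Lgmn, of 24 of 97 other lysosomal genes matched (24.7%) and of 4.29% of 27025 genes in all. The shorter CACGTG, which every such site contains and which reads the same on both strands, was in 4 of the 8, with Ctsl added, in 25.8% of the other lysosomal genes and in 8.09% of all genes. Each site is given 5′ to 3′ on the gene's strand in 30 bases, with capitals marking CACGTG and any base that extends it to TCACGTG on either strand.
Ctsa: ctgTCACGTGAtgcagatgcTCACGTGAcc
Ctsd, upstream site: tccccCACGTGAcctgtatccagtcattct
Ctsd, downstream site: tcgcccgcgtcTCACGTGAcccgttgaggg
Lgmn: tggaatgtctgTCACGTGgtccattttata
Ctsl: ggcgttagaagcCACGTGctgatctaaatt

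The pair of sites in Ctsa (chr2:164833757-164833786, plus strand) begins 12 bases before a RefSeq start, in an untranslated exon part of Ctsa-201 and Ctsa-214. In Ctsd (minus strand) the sites begin 245 and 98 bases before the start, at chr7:142388048-142388077, outside the annotated gene, and at chr7:142387908-142387937, in the untranslated exon of Ctsd-202. The Lgmn site (chr12:102439124-102439153, minus strand) lies 49 bases before the start of 1 of its 2 windows, in an intron. The Ctsl site (chr13:64370739-64370768, minus strand), without the flanking T, lies 236 bases before the start, in the untranslated exon of Ctsl-203. The windows of Cst3, Ctsc, Ctsz and Tpp1 held no CACGTG. A match is a description, not a site of binding or a cause. Of the genes with TCACGTG, Ctsd differed by -0.047, Ctsa by 0.49 and Lgmn by 0.36 on the log2 scale.

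Genes most like the set over the 6 libraries were found by Pearson's r on the log2(FPKM + 1) scale among 6501 other genes averaging 5 FPKM or more (mitochondrial, microRNA and provisionally named genes left out), as a description of 6 points that share populations. The mean of the 10 centred genes was followed most closely by P4hb (r = 0.993), a protein disulfide isomerase of the endoplasmic reticulum, Srsf3-ps (0.984), Eif2ak1 (0.983), a stress kinase regulated by haem, Paox (0.982), a polyamine oxidase, and Smtnl2 (0.982). P4hb was at 234, 234 and 197 FPKM in oxidized libraries and 207, 188 and 181 FPKM in reduced A, B and C. Srsf3-ps is uncertain, since 644 of its 1262 stretches also occur in transcripts of other genes, mainly Srsf3. The level of Paox is uncertain too, with 1294 of its 4996 stretches shared, mainly with Gm19680. Ctsh was followed most closely by Brms1l (r = 0.985), Capn2 (0.983), the catalytic subunit of a cytosolic calcium-dependent cysteine protease, Cybc1 (0.981), Pnrc1 (0.976) and Gpc3 (0.974), a heparan sulfate proteoglycan of the cell surface. Capn2 was at 13.2, 12.3 and 12.5 FPKM in oxidized libraries and 8.48, 8.89 and 8.07 FPKM in reduced A, B and C, and Gpc3 at 242, 235 and 175 FPKM in oxidized libraries against 133, 129 and 110 FPKM in reduced ones. Both separate the groups without overlap, as Ctsh does, and so do 16.2% of all genes tested with oxidized higher. As both were picked for likeness to Ctsh over these same libraries, nothing is read from this.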

How the data were processed

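Per the file headers, the authors deposited 1 table with an FPKM value for each gene and library. Per the labels' protocols, poly(A) RNA was made into stranded libraries and sequenced as paired ends. HISAT2, StringTie, edgeR, cutadapt, FastQC and the build mm10 are named in the submitters' processing notes; versions, strand use and the handling of fragments with several matches are not given in the sources used here. FPKM are not counts, so log2(FPKM + 1) was fitted with limma 3.58.1 in R 4.3.3 (group alone, eBayes with trend, two-sided, Benjamini-Hochberg over the 12191 genes averaging 1 FPKM or more) and tested on simulated data. Differences are oxidized minus reduced. Depth was estimated from the steps of low FPKM values times transcript length; only 21.8% to 24.2% of low values lay within 2% of whole steps, so reads were not recovered. Columns carry population letters and sample titles carry numbers, so a column is tied to its group and population, not to a single sample record. The population pairs oxidized with reduced libraries, per the series' design text. Deviations from group means correlated within populations at r = -0.056 (A), 0.070 (B) and 0.20 (C). Across populations r was higher than in A or B for oxidized A with reduced B (0.132) and oxidized B with reduced A (0.12). The pairing of A and B thus rests on the design text alone. Genes were located with GENCODE vM21 (GRCm38); stretches of 50 bases were compared between its transcripts. The genes and lists were chosen with earlier results of these data known. Named genes are the 10 members, the 3 smallest p in each lysosomal list and the 5 most alike to the members' mean and to Ctsh. A gene that this rule names is not reported here. Alternatives were a population block, median-ratio scaling, a pseudocount of 0.1, eBayes without trend, a filter at 5 FPKM or none, each library left out, and oxidized A and B left out together.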

Additional observations from a re-analysis of the deposited data

How the results depend on the processing

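The main fit called 97 genes. Each alternative was counted anew over all genes tested, and gave 4 with the population as a block and 1 without the filter. Without 1 library the count ran from 3 to 1180 (3 without oxidized A or reduced B, 4 without oxidized B or reduced A, 64 without reduced C, 1180 without oxidized C). The cause was not tested. The count of other lysosomal genes called was 0 under each alternative except without oxidized C, when it was 9, so leaving out 1 library gave 0 to 9. The median log2 difference of the 10 genes, 0.24, ran from 0.121 to 0.295 without 1 library and was 0.00401 without oxidized A and B, a fit that leaves 1 oxidized library assumed to vary like the others. Without oxidized B the difference of Ctsf was -0.17. The population block left the count of other lysosomal genes called at 0, so there was no call to lose. The sign of Ctsf turned without oxidized A (0.060), oxidized C (0.082) or reduced A (0.072), and without oxidized A and B those of Scpep1 (-0.21), Cstb (-0.12) and Laptm4b (-0.0076) did. Among the 10 genes the signs of Ctsd, Ctsz, Ctsa and Tpp1 also turned under alternatives whose values stand beside those genes. Ctsh rests on few fragments in reduced C, about 22 by the estimate of depth, and the effect of depth on it was not tested.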
